A study of Mus musculus with 4 samples.

Results

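Sestrins, Gadd45 proteins and related stress genes slow growth when nutrients, DNA or redox balance are disturbed, and 10 of them, of 18193 genes on the array, were followed here in Treg cells of the mouse, which are CD4 T cells marked by Foxp3 that hold back other immune cells. The 10 genes were Sesn1, Sesn2, Sesn3, Gadd45a, Gadd45b, Gadd45g, Txnip, Ddit4, Tsc22d3 and Btg1. They were chosen by name, with earlier results of these data known. All 23 probe sets that the platform annotation gives them were read, out of 45101 on the array. The arrays were 2 labelled Foxo1/3-deficient and 2 labelled wild-type, all from spleen Treg cells of the C57BL/6 strain and numbered as pair 1 and pair 2 with 1 array of each label in a pair. Titles of the mutant samples name Foxo1 and Foxo3, while their genotype field names Foxo1 alone. The sources used here give neither the way the genes were deleted, nor in which cells, nor the age and number of animals behind an array, so the p-values below measure only the spread between these arrays.

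Foxo1 and Foxo3 are transcription factors that growth signals through PI3K and AKT push out of the nucleus. In many tissues they switch on genes that restrain growth, and sestrins, Gadd45a, Txnip and Tsc22d3 have been counted among such targets. Sestrins bind GATOR2 and so keep the growth kinase mTORC1 in check, and Ddit4 reaches the same kinase through the TSC1 and TSC2 complex. Gadd45 proteins bind the kinase Map3k4 and turn on the p38 and JNK stress kinases. Txnip binds thioredoxin and lowers glucose uptake, Tsc22d3 (also called GILZ) is induced by glucocorticoids, and Btg1 brings the CCR4-NOT deadenylase to mRNA.

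The targeted genes were read first. The brightest Foxo1 probe set read 6949 and 6697 on the labelled-deficient arrays, against 2383 and 1254 on the wild-type arrays, so Foxo1 signal went against the label on both. Foxo3 read 1424 and 1308 on the labelled-deficient arrays and 1876 and 2635 on the wild-type arrays. The sources used here do not place these probe sets relative to a deleted stretch. Whether the labels of the 2 groups were exchanged was not tested either, and an exchange would turn every direction below, which is that of the arrays as labelled. Treg markers were present throughout, with Foxp3 at 6504 and 6056 on the labelled-deficient arrays and 6540 and 6285 on the wild-type arrays, and 0 of 9 Treg identity genes passed the test in either fit. The median signal of an array lay between 72.0 and 83.4. In bulk RNA such as this, fewer cells of a type and less RNA per cell cannot be told apart.

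The start regions of the members are shown because a forkhead motif was searched in them, the letters GTAAACA on either strand, which FoxO proteins are known to bind. RefSeq start windows on the GRCm38.p6 build (250 bases before a start and 50 after it) matched all 10 members, with 13 windows in all. A match stood in 3 of the 13 windows, 1 each of Sesn1, Txnip and Btg1, where 3.65% of 32851 windows of all genes held one. The longer form GTAAACAA, which contains the first, stood in the Txnip and Btg1 windows and in 1.23% of all windows. The Txnip match lay at positions -121 to -115 from the start, the Btg1 match at -204 to -198 and the Sesn1 match at 23 to 29 after the start. The Txnip match was on the plus strand. Those of Btg1 and Sesn1 were on the minus strand and so are printed as TGTTTAC. Sesn1 is shown as 30 bases around its match and as the 250 bases before its other start, which held no match; Txnip and Btg1 are shown as the 250 bases before their starts. Capitals mark the 7 motif letters, and all 4 stretches are printed from the plus strand (chr10:41810585-41810614, chr10:41887189-41887438, chr3:96557707-96557956 and chr10:96616751-96617000).
Sesn1 around the match: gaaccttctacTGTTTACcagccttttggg
Sesn1 other start: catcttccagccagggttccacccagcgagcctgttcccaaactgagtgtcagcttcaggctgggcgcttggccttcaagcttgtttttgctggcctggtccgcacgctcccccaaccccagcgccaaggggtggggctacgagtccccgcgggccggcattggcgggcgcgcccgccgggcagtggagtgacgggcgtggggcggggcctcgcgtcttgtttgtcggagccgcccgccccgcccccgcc
Txnip: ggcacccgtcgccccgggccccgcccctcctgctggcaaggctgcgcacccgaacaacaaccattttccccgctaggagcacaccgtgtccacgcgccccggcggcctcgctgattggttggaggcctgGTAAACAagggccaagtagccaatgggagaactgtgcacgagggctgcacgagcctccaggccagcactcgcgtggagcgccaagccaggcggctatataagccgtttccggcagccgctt
Btg1: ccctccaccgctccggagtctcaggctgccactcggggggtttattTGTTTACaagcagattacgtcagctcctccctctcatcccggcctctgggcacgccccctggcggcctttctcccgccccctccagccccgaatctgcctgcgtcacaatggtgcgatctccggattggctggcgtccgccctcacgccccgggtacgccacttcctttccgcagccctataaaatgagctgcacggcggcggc
Of these 3 genes with a match, Sesn1 was higher on the labelled-deficient arrays and Txnip and Btg1 did not pass the test, as given below. Tsc22d3, the other member that rose, had no match in its 3 windows, which says only that these letters are not there.

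Sesn1 and Tsc22d3 rose on the labelled-deficient arrays, by 3.89-fold and 2.68-fold. The other 8 members did not pass the test at an adjusted p under 0.05 (limma over 12109 genes on the log2(signal + 17) scale). Over all genes tested, 1.21% passed as higher and 1.35% as lower. The 10 members had a median log2 difference of 0.23, beside -0.0034 over all genes. Of the members, 4 had an unadjusted p under 0.05, namely Sesn1, Tsc22d3, Gadd45b and Gadd45g, where 13.0% of all genes did. With the pair as a block in the same model, 2 members passed as higher and 3 as lower (Gadd45b, Gadd45g and Ddit4), where 5.23% of all genes passed as higher and 6.33% as lower. On simulated data a larger share of the calls was false with the block than without it. Pair differences were simulated for the blocked fit alone, so the fits were not compared on the same data. Every blocked call below rests on 1 residual degree of freedom and is to be read with caution. The variance that limma shares across genes counts for 16.1 further degrees of freedom there, against 5.68 without the block. Both labelled-deficient arrays lay above both wild-type arrays for 4 members and below them for 3, where 20.0% and 21.1% of all genes did so. The 3 were Gadd45b, Gadd45g and Sesn2, and the nearest Sesn2 values of the groups were 277 and 283. The smallest p of an exact permutation test at this size is 0.333, so each p rests on the variance that limma shares across genes.

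**Figure D1:**
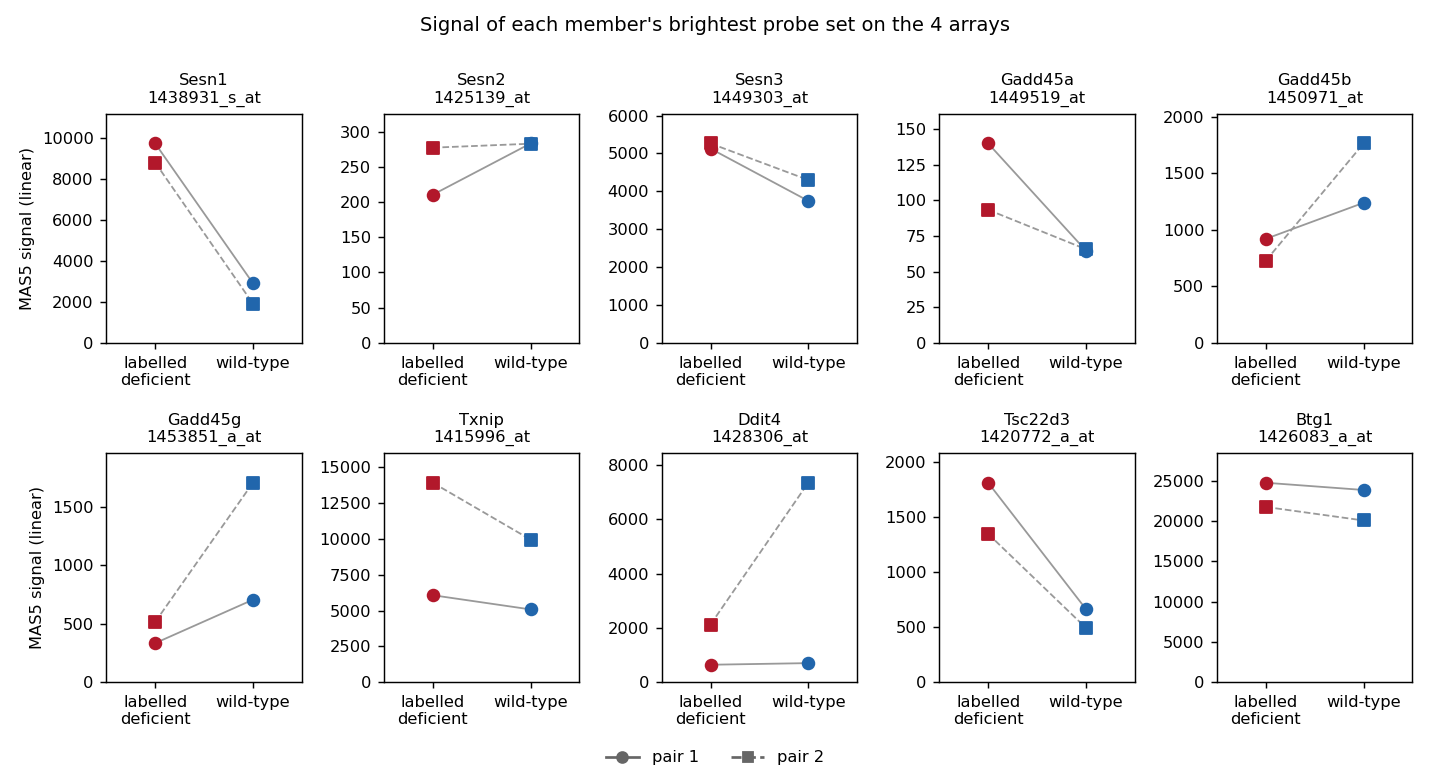
MAS5 signal (linear scale, from 0) of the brightest probe set of each member, with labelled-deficient arrays in red at the left and wild-type arrays in blue at the right of each panel; circles and solid lines are pair 1, squares and dashed lines pair 2. Sesn1 and Tsc22d3 lie higher on both labelled-deficient arrays, while Txnip and Ddit4 split by pair.

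Of the 3 sestrins, Sesn1 alone passed the test. Sesn1, a sestrin first known as a p53 target, read 9756 and 8823 on the labelled-deficient arrays, against 2920 and 1923 on the wild-type arrays. The groups did not overlap, and the ratio within a pair was 3.34 in pair 1 and 4.59 in pair 2. Its log2 difference was 1.96 ± 0.24 (SE; limma adjusted p = 0.00979, and 2.49e-07 with the pair as a block). Without the intensity trend in the variance, and without the block, it missed the threshold (adjusted p = 0.0520). All 4 Sesn1 probe sets lay on the same side, with log2 differences from 1.56 to 2.40. The dimmest of them read 220 and 345 on the labelled-deficient arrays and 91.3 and 74.5 on the wild-type arrays. Sesn3, the sestrin best known as a FoxO target, read 5127 and 5263 on the labelled-deficient arrays, against 3748 and 4299.8 on the wild-type arrays. These groups did not overlap either, but the difference, 0.37 ± 0.19 on the log2 scale (SE), missed the threshold (limma adjusted p = 0.498). Sesn2, the leucine sensor of the family, read 211 and 277 on the labelled-deficient arrays and 283 on each wild-type array. Its log2 difference was -0.21, with a 95% interval from -0.89 to 0.46, and its other probe set stood at -0.67. The differences between the 3 sestrins were not tested against each other.

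Gadd45b and Gadd45g read lower on the labelled-deficient arrays, and Gadd45a, at dim signals, read higher without passing the test. Gadd45g, which T cells switch on when stimulated, read 334 and 514 on the labelled-deficient arrays, against 705 and 1704 on the wild-type arrays. Every labelled-deficient value lay below every wild-type value, and the signal was 2.11-fold lower in pair 1 and 3.31-fold lower in pair 2. Its log2 difference of -1.37 ± 0.43 (SE) missed the threshold without the pair (limma adjusted p = 0.181) and passed with the pair as a block (adjusted p = 0.000241). Without wild-type replicate 1 it stood at log2 -2.00 and without wild-type replicate 2 at -0.74. It stood at -1.07 without labelled-deficient replicate 1 and at -1.67 without replicate 2. Such a fit leaves 1 group with an array of 1 pair only. It therefore mixes the pair difference of Gadd45g, given below, with the genotype difference. Gadd45b, an early response gene of activated T cells, read 919.9 and 727 on the labelled-deficient arrays and 1239 and 1763 on the wild-type arrays. The groups were apart here too, by -0.84 ± 0.27 on the log2 scale (SE), which passed only with the pair as a block (adjusted p = 0.00889, against 0.194 without it). A second Gadd45b probe set read 786 and 625 on the labelled-deficient arrays, against 1576 and 1833 on the wild-type arrays, and another, dimmer one stood at log2 -0.58. When every probe set was tested as its own row, this second Gadd45b set passed with the block (adjusted p = 0.00650) and the brightest did not (0.0683). Gadd45a, a p53 and FoxO target of DNA damage responses, was dim, with 140.0 and 93.4 on the labelled-deficient arrays, against 64.8 and 65.8 on the wild-type arrays. Its log2 difference of 0.68 ± 0.36 (SE) passed in neither fit (limma adjusted p = 0.523, and 0.344 with the block).

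Tsc22d3, the leucine-zipper protein through which glucocorticoids dampen T cell activation, rose on the labelled-deficient arrays. Its brightest probe set read 1808 and 1345 there, against 663 and 492 on the wild-type arrays. The ratio was 2.73 in each pair, and the log2 difference was 1.42 ± 0.27 (SE; limma adjusted p = 0.0425). A second probe set of Tsc22d3 read 904 and 852 on the labelled-deficient arrays, against 411 and 262 on the wild-type arrays. Another, whose name carries the suffix x, read 396 and 279 on the labelled-deficient arrays and 284 and 253 on the wild-type arrays, so its groups overlapped. Affymetrix gives this suffix to sets whose probes may also bind other sequences. The dimmest was below the filter and was not tested, at 19.7 and 17.9 on the labelled-deficient arrays and 26.4 and 56.9 on the wild-type arrays. With the pair as a block Tsc22d3 passed too (limma adjusted p = 2.89e-05). Its call without the pair was lost without either labelled-deficient array and without wild-type replicate 2. There the log2 difference was 1.21 without labelled-deficient replicate 1, 1.63 without replicate 2 and 1.21 without wild-type replicate 2. These fits mix the pair difference of Tsc22d3 with its genotype difference.

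Txnip and Ddit4 differed more between pairs than between genotypes. Txnip, the thioredoxin-binding arrestin, read 6069 and 13917 on the labelled-deficient arrays of pairs 1 and 2, against 5079 and 9949.9 on the wild-type arrays. The groups overlapped, and the log2 difference was 0.37, with a 95% interval from -0.62 to 1.36 (limma adjusted p = 0.849, and 0.173 with the pair as a block). Ddit4, also called REDD1, read 643 and 2122 on the labelled-deficient arrays and 702 and 7339.9 on the wild-type arrays. The wild-type array of pair 2 stood highest and the labelled-deficient array of pair 2 next, and the genotype difference was log2 -0.12 within pair 1 and -1.78 within pair 2. Over both pairs it was -0.95 ± 0.98 (SE; limma adjusted p = 0.821). With the block it passed over genes (adjusted p = 0.0201) but not over probe sets (0.141). Without wild-type replicate 2 the sign turned, to log2 0.72, and without wild-type replicate 1 the difference stood at -2.63. These fits mix the pair difference of Ddit4 with its genotype difference.

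Btg1, an antiproliferative gene that helps keep naive mouse T cells quiescent, showed the smallest genotype difference of the 10. It read 24722 and 21723 on the labelled-deficient arrays, against 23826 and 20047 on the wild-type arrays. The groups overlapped, and the log2 difference was 0.08, with a 95% interval from -0.30 to 0.47 (limma adjusted p = 0.936). Its second probe set stood at log2 0.10. Its dimmest probe set read 2301 and 1710 on the labelled-deficient arrays and 1655 and 1187 on the wild-type arrays, without overlap and at log2 0.50 (adjusted p = 0.639 over probe sets).

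Taken probe set by probe set, 22 of the 23 passed the filter on dim signals. Without the pair in the model 3 were higher, all of Sesn1, and 0 lower, where 0.633% and 0.530% of 27004 probe sets passed. Once the pair was a block, 6 stood higher, 4 of Sesn1 and 2 of Tsc22d3, and 2 lower, 1 each of Gadd45b and Gadd45g. The same fit passed 2.55% of all probe sets as higher and 2.63% as lower. At least 2-fold in both pairs, without a test, 2 members were higher and 1, Gadd45g, was lower, where 2.06% and 2.32% of all genes were.

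**Figure D2:**
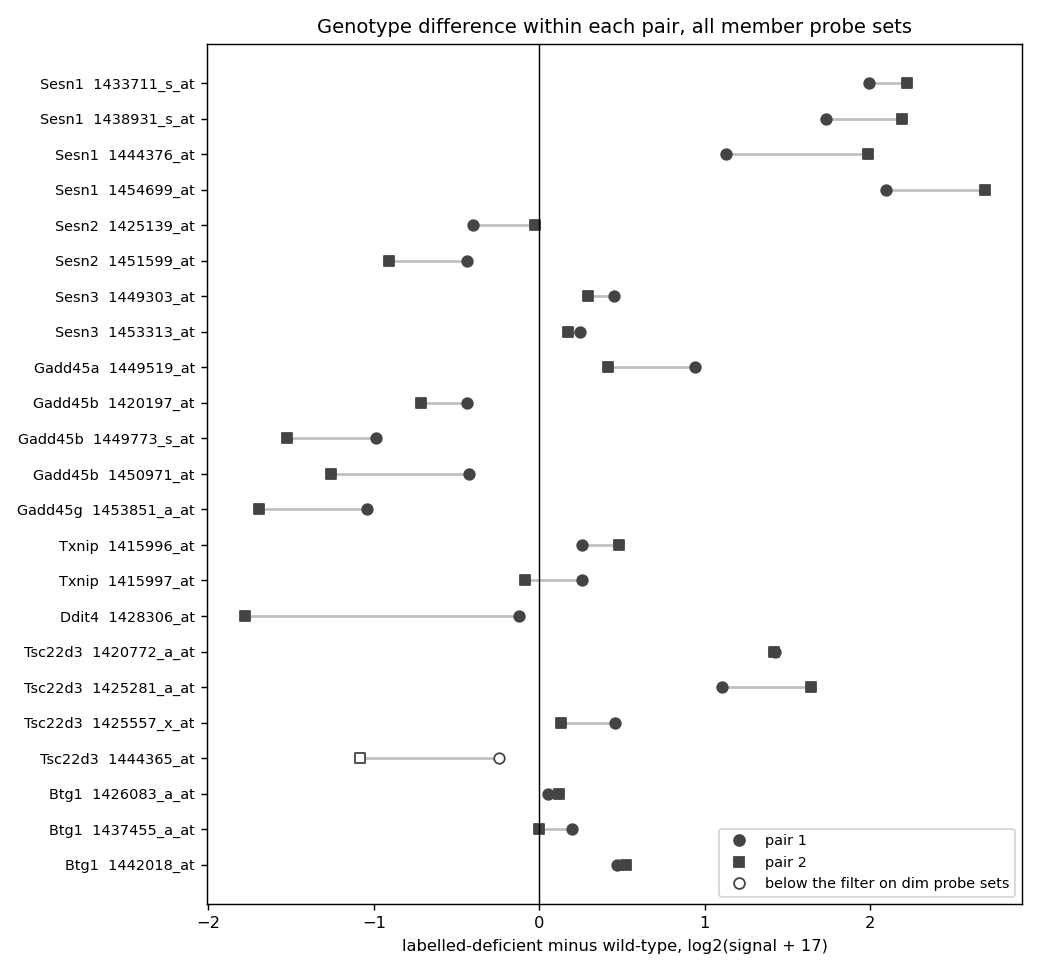
Labelled-deficient minus wild-type signal on the log2(signal + 17) scale within pair 1 (circles) and pair 2 (squares) for all 23 member probe sets, with an open symbol for the dim Tsc22d3 set. The 4 Sesn1 sets lie between 1.13 and 2.70 in both pairs, and the Ddit4 symbols lie furthest apart.

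The pairs were set against each other because Ddit4 and Txnip split by pair number; this test was added after their values were seen. Of the 12109 genes, pair 2 stood higher than pair 1 for 2.96% and lower for 3.79% (limma with genotype as a covariate). Ddit4, Txnip and Gadd45g were among the higher ones and 0 members among the lower ones. Ddit4 was 3.30-fold higher in pair 2 on the labelled-deficient arrays and 10.5-fold higher on the wild-type arrays (log2 2.53, adjusted p = 2.68e-05), and its absolute pair difference ranked 9 among all genes. Txnip was 2.29-fold and 1.96-fold higher in pair 2 on the labelled-deficient and wild-type arrays (log2 1.08, adjusted p = 0.000742). Gadd45g was 1.54-fold and 2.42-fold higher there (log2 0.93, adjusted p = 0.0148). The dimmer Txnip probe set differed less between pairs, with 522 and 555 in pair 2 and 471 and 392 in pair 1 on the labelled-deficient and wild-type arrays.

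Sex-linked signals divided the arrays along the same line. Eif2s3y, a Y-linked gene, read 6414 and 5396 on the labelled-deficient and wild-type arrays of pair 2, and 4.01 and 10.3 on those of pair 1. Xist, which female cells express, read 17.2 and 1909 in pair 2 and 10387 and 12934 in pair 1 on the same probe set. The wild-type array of pair 2 thus carried both signals. Sex and pair cannot be told apart on these arrays. Within pair 2 Xist also differed between the genotypes, so sex and genotype cannot be fully told apart there either. The sources used here do not say what else differed between the pairs. Tsc22d3 is X-linked, and the part of sex in its difference was not tested. Its ratio of labelled-deficient over wild-type signal within pairs 1 and 2 was 2.20 and 3.25 for the second probe set and 1.40 and 1.10 for the one with the suffix x, beside 2.73 in each for the brightest.

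**Figure D3:**
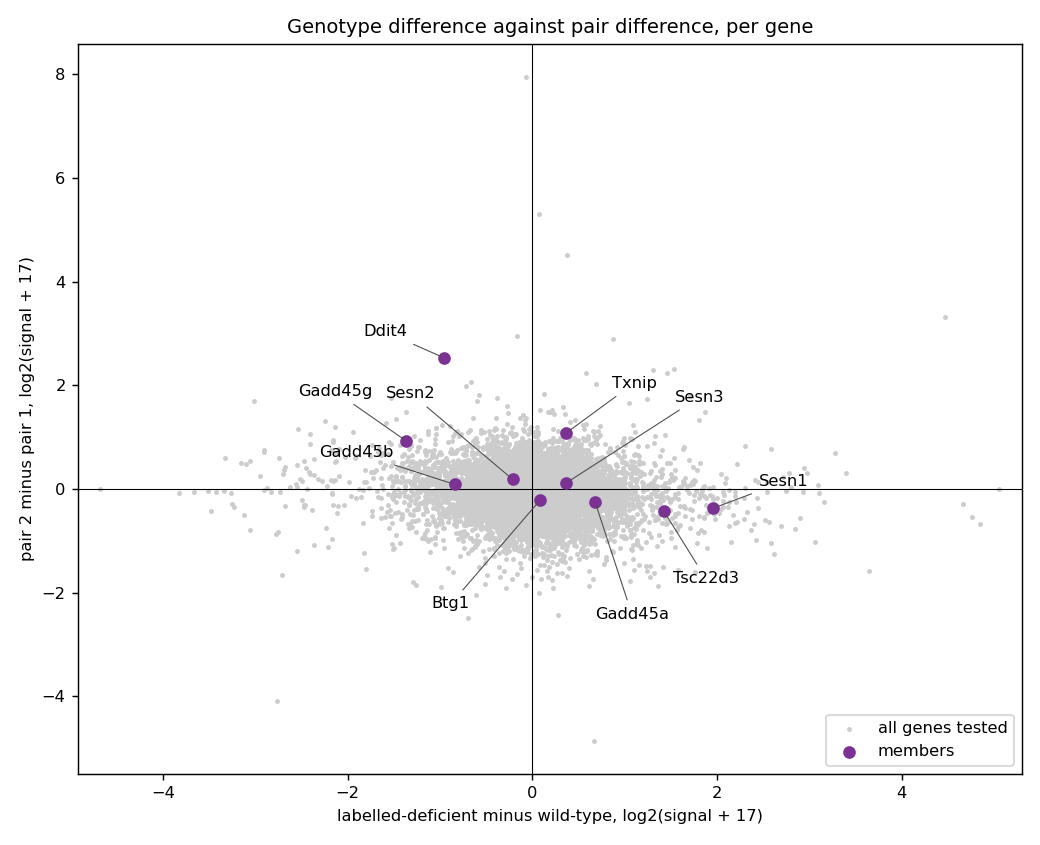
Genotype difference (horizontal axis) against pair 2 minus pair 1 (vertical axis), both on the log2(signal + 17) scale, for 12109 genes in grey and the 10 members in purple. Sesn1 and Tsc22d3 lie to the right near the horizontal line, and Ddit4 lies high on the pair axis.

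The partners through which these genes act were read next, from lists made with earlier results of these data known. Beside every list count below, 1.21% of all genes tested passed as higher and 1.35% as lower. With the block 5.23% and 6.33% did. The counts of the lists were not tested against these shares. Of 33 genes that feed nutrients to mTORC1, 0 passed in either direction (median log2 0.017), and with the block 3 were higher and 1 lower. Castor2, a paralogue of the arginine sensor, read 306 and 398 on the labelled-deficient arrays, against 131 and 153 on the wild-type arrays (adjusted p = 0.0971, and 0.00854 with the block). Castor1, the arginine sensor itself, read 764 and 1089.7 on the labelled-deficient arrays and 1178 and 2264 on the wild-type arrays (0.362, and 0.00392 with the block). Flcn and Fnip1, which together control the Rag GTPases, stood at log2 0.70 and 0.63 and passed with the block (0.00481 and 0.0192). Tsc1 and Tsc2, through which Ddit4 acts, stood at 0.45 and -0.06 and passed in neither fit. Of 10 AMPK genes 0 passed in either fit (median 0.13), and Prkab2, a regulatory subunit, had the largest difference at 0.47.

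The list of Gadd45 partners and of p38 and JNK kinases held genes that moved in both directions. Of 13 genes tested 2 rose and 2 fell (median log2 0.0065), and 2 and 3 did with the block. Mapk11, which encodes p38 beta, rose 3.01-fold, with 897 and 771 on the labelled-deficient arrays, against 238 and 295 on the wild-type arrays. Mapk12, which encodes p38 gamma, read 206 and 184 on the labelled-deficient arrays and 34.2 and 4.01 on the wild-type arrays. Both wild-type values lay below the filter signal of 40.5, so Mapk12 entered the test only through the labelled-deficient arrays, and its call among the 2 that rose carries no size. Cdkn1a, the CDK inhibitor p21 that also binds Gadd45 proteins, fell 3.66-fold, with 173 and 123 on the labelled-deficient arrays, against 498 and 678 on the wild-type arrays. Cdk1, the mitotic kinase that Gadd45 proteins restrain, fell 2.60-fold. Map3k4 itself read 1788 and 2179 on the labelled-deficient arrays and 1981 and 1815 on the wild-type arrays.

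Among 19 other p53 targets Cdkn1a was the 1 that fell and 0 rose, with a median log2 difference of -0.031, while 2 were higher and 3 lower with the block. Of those, Perp stood at log2 -1.23, Btg2 at 0.71 and Pmaip1 at -0.68. Among 15 genes of the thioredoxin system and the alpha-arrestins 1 rose, 0 fell (median -0.093), and with the block 1 was higher and 1 lower. The rise was that of Arrdc3, a relative of Txnip in the arrestin family, which read 933 and 1493 on the labelled-deficient arrays, against 300.4 and 416 on the wild-type arrays (3.23-fold, adjusted p = 0.0392). Txn1, the thioredoxin that Txnip binds, read 10114 and 11833 on the labelled-deficient arrays and 16917 and 17433 on the wild-type arrays (log2 -0.65, adjusted p = 0.104, and 0.0140 with the block).

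Other genes of the glucocorticoid response and the TSC22 family moved in both directions. Of 18 tested 1 rose and 2 fell (median log2 -0.22), where 1.21% of all genes passed as higher and 1.35% as lower. With the block 2 were higher and 3 lower, where 5.23% and 6.33% of all genes were. This list too was made with earlier results of these data known. Fkbp5, a textbook glucocorticoid target, fell 2.18-fold, with 1201 and 1276 on the labelled-deficient arrays, against 2653 and 2776 on the wild-type arrays. Errfi1, a feedback inhibitor of growth factor receptors, fell 2.26-fold. The rise was that of Tsc22d1, a relative of Tsc22d3, with 2258 and 2549.9 on the labelled-deficient arrays, against 1053 and 765 on the wild-type arrays. Zbtb16, counted among those higher with the block, read 81.4 and 154 on the labelled-deficient arrays and 28.3 and 26.7 on the wild-type arrays, so it too entered the test only through the labelled-deficient arrays. Tsc22d4, another relative, stood at 0.10.

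Relatives of Btg1 passed with the block alone. Of 17 genes of the BTG and TOB family and of CCR4-NOT 0 passed in either direction (median log2 -0.026), and with the block 3 were higher and 0 lower. Tob1, a quiescence factor of T cells, read 2368 and 1257 on the labelled-deficient arrays, against 929 and 361 on the wild-type arrays (log2 1.54, adjusted p = 0.168, and 1.66e-05 with the block). Btg2 read 3129 and 3088 on the labelled-deficient arrays and 1578 and 2283 on the wild-type arrays (0.223, and 0.00858 with the block). Cnot6l, a deadenylase subunit, stood at 0.61.

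Of 21 other FoxO targets tested 9 rose and 0 fell (median log2 0.86), and 12 and 2 did with the block. The growth factor receptor Igf1r, the lymph node homing receptor Ccr7, the repressor Bach2 and the PI3K inhibitor Pik3ip1 were among the 9, and Pik3ip1 rose 4.21-fold. This list was chosen with those rises known and is no independent evidence of its direction.

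**Figure D4:**
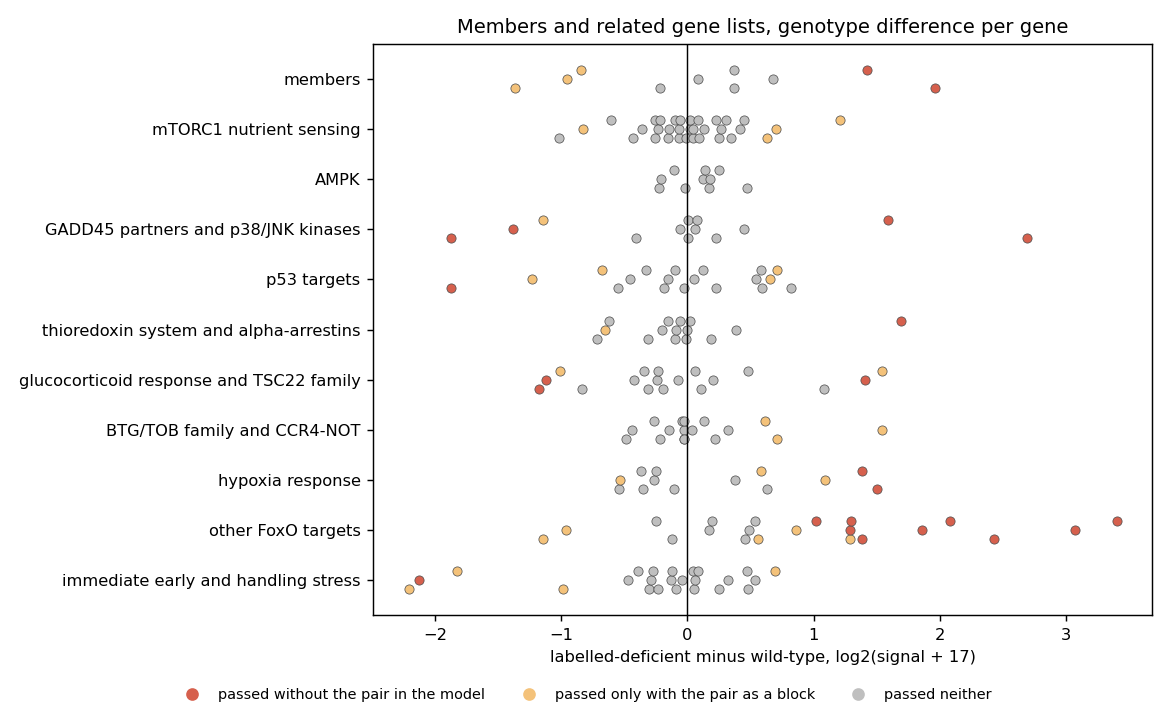
Labelled-deficient minus wild-type difference on the log2(signal + 17) scale for each tested gene of the members (top) and of 10 related lists. Colours show which fit a gene passed, and vertical spread within a row has no meaning; other FoxO targets reach furthest right, with 9 of 21 past the threshold.

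Signs of cell handling and of other cell types were read beside these values. Of 24 immediate early and heat shock genes 1 fell, Nr4a2, and 0 rose (median log2 -0.10), and with the block 1 was higher and 4 lower. Hspa1b, an inducible heat shock protein whose near-identical copy Hspa1a can share its signal, read 484 and 308 on the labelled-deficient arrays, against 3269 and 1039 on the wild-type arrays. The summed signal of the list was 101312 and 90546 on the labelled-deficient arrays and 105020 and 93621 on the wild-type arrays. Of 5 CD8 T cell markers 2 fell, Klrc1 and Eomes, and the sum was 1391 and 1767 on the labelled-deficient arrays, against 2902 and 3197 on the wild-type arrays. The other 3, without those that fell, summed to 967 and 1364 on the labelled-deficient arrays and 1177 and 1009.7 on the wild-type arrays. Of these Cd8a stayed at or below 232, and Cd8b1 read 274 and 444 on the labelled-deficient arrays, against 286 and 224 on the wild-type arrays. Of 4 natural killer cell markers tested Gzma fell, and the sum was 1704 and 2037 on the labelled-deficient arrays, against 6932 and 8013 on the wild-type arrays. Gzma made up that gap, since the other 3, Tyrobp, Fcer1g and Prf1, summed to 1436 and 1861.5 on the labelled-deficient arrays and 1976 and 770.0 on the wild-type arrays. B cell markers summed to 3614 and 2541 on the labelled-deficient arrays and 3778 and 1687 on the wild-type arrays, with 0 of 8 past the threshold. With the block Ms4a1 was higher (log2 0.89, adjusted p = 0.00510) and Cd22 lower (-0.75, 0.0269). Myeloid markers summed to 13224 and 9657 on the labelled-deficient arrays and 11027 and 7047 on the wild-type arrays, with 0 of 10 past it. With the block Adgre1 (log2 1.03, adjusted p = 0.000975) and Csf1r (0.64, 0.0103) were higher and Mmp9 (-2.14, 0.000372) lower. Erythroid markers stayed at 179.9 or below, and 0 of 3 passed. The part of these cells and of handling in the differences of the members was not tested.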

How the data were processed

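The authors deposited 1 table of linear signal intensity per probe set, which the submitters' processing notes credit to MAS5, whose version the sources used here do not give. Each array had a 2% trimmed mean of 500.003, so no scaling was added. Here log2(signal + 17) was used, 17 being the 25th percentile of all signals, so folds of dim genes are understated. Probe sets whose mean fell below the 40th percentile, near a signal of 40.5, and 64 controls were left out. A gene was read from its brightest probe set with 1 symbol, updated through RefSeq gene IDs; 12109 genes and 27004 probe sets were tested.

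limma 3.58.1 in R 4.3.3 (eBayes with an intensity trend, two-sided, Benjamini-Hochberg) was fitted without the pair, with 2 residual degrees of freedom. The pair as a block was the alternative, with 1. Titles number the pairs, and deviations from group means correlated within pairs across genes with r = 0.367. Both fits were tested on simulated data, where a larger share of calls was false with the block than without it. Each fit had its own simulated data, with pair differences for the blocked fit alone, so the shares do not compare the fits directly. Members and lists were chosen with earlier results of these data known. Named were all members, their partners, Foxo1, Foxo3 and, per list, up to 4 genes that passed either fit, by size, or else the gene with the largest difference; markers were used to read other cell types. Prdx1, on the partner list, was not analysed here. With 4 arrays, precision is limited by their number.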

Additional observations from a re-analysis of the deposited data

How the results depend on the processing

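Without the pair, 147 genes were higher and 164 lower, 2 members among the higher. With the pair as a replicate block these were 633 and 767 genes, with 3 members lower; over probe sets 688 and 709 (from 171 and 143), with 6 member sets higher (from 3) and 2 lower. The block changed no other member's call over genes. Without the filter on dim signals 45 and 44 genes and 38 and 29 probe sets passed, with 1 member (Sesn1) and 1 member probe set higher. Without the intensity trend it was 57 and 54 genes and 47 and 51 probe sets, with 0 members and 1 member probe set (Sesn1 missed at 0.0520, Tsc22d3 at 0.0975). On the mean of probe sets 1 member passed (Sesn1; Tsc22d3 at log2 1.03, 0.0870). Leaving out 1 array gave 67 to 278 genes higher and 82 to 265 lower (1 to 2 and 0 to 2 members), and over probe sets 112 to 365 and 100 to 184 (3 to 5 and 0 to 2 member sets). Signs turned only in such fits: Btg1 to -0.0087 and -0.040 (highest 0.21), its second probe set to -0.077 (highest 0.27), Txnip to -0.23 and -0.11 (highest 0.97), its dimmer probe set to -0.16 (highest 0.33), and Ddit4 to 0.72 (lowest -2.63). A fit without 1 array mixes the pair difference of a gene with its genotype difference. The cause of the other changes was not tested. No pseudocount, the median as pseudocount, the 60th percentile filter, quantile normalization and the first-listed probe set left the members' calls over genes as they were, except that Gadd45a could not be tested under that filter. The low signals of Gadd45a, near those of the filter, limit what can be said of it.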

Other observations

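Genes of the hypoxia response, a setting in which Ddit4 is known to be induced, were read beside it. Of 13 tested 2 rose and 0 fell (median log2 -0.10), where 1.21% and 1.35% of all genes did. With the block 4 were higher and 1 lower, where 5.23% and 6.33% of all genes were. P4ha1, a collagen prolyl hydroxylase, read 872 and 939 on the labelled-deficient arrays, against 262 and 364 on the wild-type arrays (2.83-fold, limma adjusted p = 0.0363). Mxi1, an antagonist of Myc, rose 2.61-fold (adjusted p = 0.0329). Egln3, an oxygen-sensing hydroxylase, stood at log2 1.09 and Pdk1, a brake on mitochondrial pyruvate use, at 0.58, and both passed with the block (0.00871 and 0.0159).

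Of the hypoxia genes named above, Pdk1 alone also differed between the pairs. It read 7261 and 4916 on the labelled-deficient and wild-type arrays of pair 2, and 3848 and 2525 on those of pair 1 (log2 0.93, limma adjusted p = 0.00174). P4ha1, Mxi1 and Egln3 did not pass that test (limma adjusted p = 0.530, 0.813 and 0.501). Of the 13 genes, 0 were at least 2-fold higher in pair 2 on both labels. The part of hypoxia in the pair difference of Ddit4 was not tested.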
